A study of Drosophila melanogaster with 2 samples.

Results

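The 10 genes described here form the temporal series of embryonic neuroblasts: hb, Kr, nub, pdm2, cas and grh, which follow each other in time, and svp, D, dan and danr, which act beside them. They were chosen by name, not by their values, and all 10 were found among the 13968 protein-coding genes on the chromosome arms in the Ensembl annotation of Drosophila melanogaster (assembly dm6). For each gene, every entry of the peak lists whose summit lay in the gene body or within 10 kb of it was taken. The measurement was chromatin immunoprecipitation followed by sequencing (ChIP-seq) of Castor (cas), itself a member of the series. Whole embryos of the strain cas-GFP, aged 0 to 24 hours, carried a cas-eGFP fusion, and the fusion protein was pulled down with an antibody against GFP. The series held 1 group with 2 biological replicates, so there was no comparison between groups, and no input or mock library was analysed here. Whether the strain also made untagged Castor is not given in the sources used here.

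Neuroblasts are the stem cells of the fly nerve cord, and each gives rise to different neurons as it ages. In the classical order a neuroblast expresses Hunchback, then Krüppel, then the POU-domain proteins Nubbin and Pdm2, then Castor, and last Grainyhead, and each factor marks the progeny born while it is present. Castor, a zinc-finger protein, is known as a repressor of the pdm genes and as an activator of grh. Only a small part of the cells of a whole embryo are neuroblasts in their Castor stage, and the lists average over all cells and ages, so binding confined to few cells and no binding cannot be told apart.

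The authors deposited thresholded and ranked peak lists. There was 1 of each for replicate 1, for replicate 2, for a combined set called conservative and for a second combined set, called pooled here. Of the conservative set only the thresholded list bears that name. The ranked list matched to it holds all 1880 of the thresholded peaks. Whether the other combined ranked list also holds them is not given here. The conservative ranked list held 105251 entries and its thresholded list 1880. The pooled lists held 129456 and 2237, those of replicate 1 held 58485 and 1248, and those of replicate 2 held 89597 and 1158. Each entry carries the authors' signal, a measure of its height, and a −log10 irreproducible discovery rate (IDR). The latter is higher where an entry ranks both high and alike in a pair of peak sets. A low value can therefore mean a low rank as well as disagreement. Every thresholded peak had a −log10 IDR of at least 2. Signals are not scaled between lists, the lists give no read totals, so the depth is unknown, and the combined lists come from the same libraries as the replicate lists.

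Castor peaks that passed the authors' threshold were few within 10 kb of the temporal series genes. In the conservative list 1 of the 10 genes had a thresholded peak, grh, while 40.8% of all protein-coding genes had one under the same rule. In the pooled list 2 genes had one, cas and grh, beside 45.3% of all genes. Replicate 1 had none at any of the 10 genes, beside 31.0% of all genes, and replicate 2 had 1, again at grh, beside 30.8%. These peaks lay at only 2 places, an intron of grh and the 5′ part of cas. The other 8 genes (hb, Kr, nub, pdm2, svp, D, dan and danr) had no thresholded peak in any of the 4 lists. Narrower windows gave another reading of the conservative list. The count was 1 with the gene body alone, beside 6.13% of all genes, and 1 with a 2 kb window, beside 20.1%. There the series was not clearly short of peaks.

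Below the threshold the order of the genes was graded. A −log10 IDR of at least 1, an IDR of at most 0.1, was reached in the conservative ranked list by cas, grh and dan, 3 of 10 genes beside 59.7% of all genes. In the pooled ranked list hb, nub, cas, grh, svp and dan reached it, 6 of 10 beside 68.5%. In replicate 1 the 3 genes were cas, grh and svp, beside 47.4% of all genes, and in replicate 2 they were cas, grh and dan, beside 45.9%. Thus cas and grh reached this level in all 4 lists, and Kr, pdm2, D and danr in none of them. In the conservative list with the gene body alone, 2 of 10 genes reached this level, beside 12.7% of all genes. With a 2 kb window 3 of 10 did, beside 32.8%. At these narrower windows the series was not clearly short of all genes. No test was made of these counts, since the genes are few and were chosen with earlier results known.

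**Figure D1:**
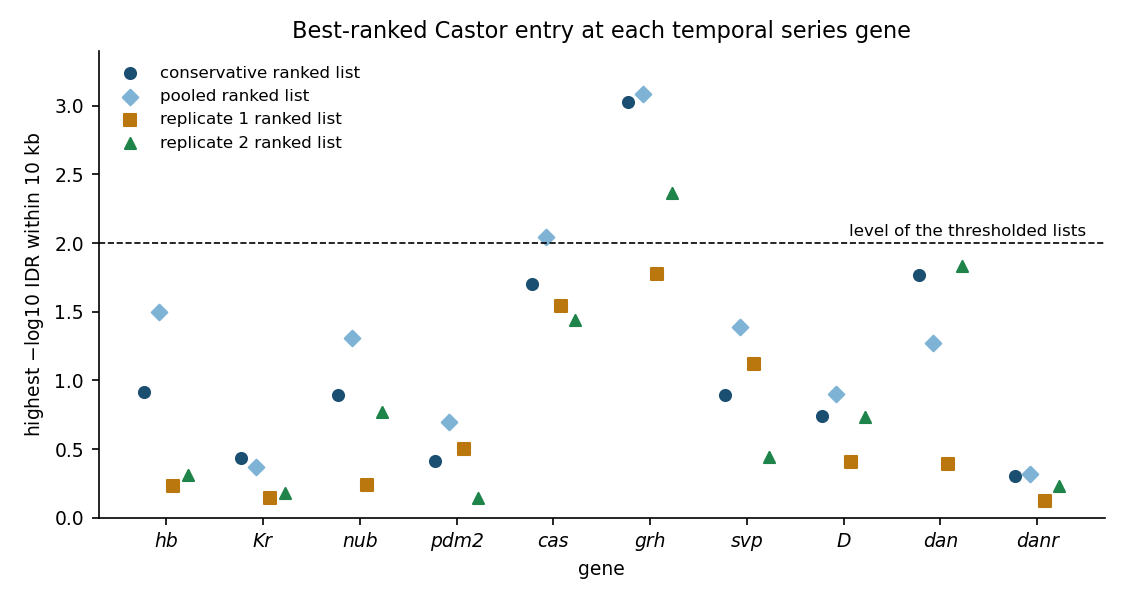
Highest −log10 IDR (vertical axis) among the ranked entries within 10 kb of each gene (horizontal axis), with 1 point for each of the 4 ranked lists and a dashed line at 2, the lowest level of the thresholded lists. Only grh in 3 lists and cas in the pooled list lie above the line, and danr and Kr have no value above 0.44 in any list.

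The strongest conservative entries of the early factors, hb and Kr, lay below the middle of all genes. hb (FBgn0001180, 3R from 8690980 to 8697822, minus strand) encodes Hunchback, the zinc-finger protein of the first neuroblast window. Its strongest conservative entry had its summit at 8692807, in a coding exon of hb, with a signal of 42.4 and a −log10 IDR of 0.92; the same entry had 1.5 in the pooled list. The overlapping entries of the replicates had signals of 15.8 and 24.1. In the conservative list 43.0% of all protein-coding genes had a weaker strongest entry, so hb stood slightly below the middle of all genes.

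Kr (FBgn0001325, 2R from 25226611 to 25231394, plus strand) encodes Krüppel, the zinc-finger protein that follows Hunchback. Its strongest conservative entry, at 25228384, had a signal of 31.25 and a −log10 IDR of 0.44, and 16.4% of all genes had a weaker one. The summit lay in a coding exon of Kr, which is also within the body of CG9380. The strongest signal in the window of Kr was 17.1 in replicate 1 and 11.3 in replicate 2, where 2.18% of all genes had a lower value. Kr was the single gene of the 10 whose strongest conservative entry overlapped no entry of replicate 2.

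The pdm pair, known targets of repression by Castor, carried no thresholded peak, and in any list at most 1 entry with a −log10 IDR of at least 1, at nub. nub (FBgn0085424, 2L from 12587625 to 12628135) and pdm2 (FBgn0004394, 2L from 12657165 to 12686306) encode POU-homeodomain proteins and lie 29.0 kb apart on the plus strand. The body of the gene Ref2 overlaps the 3′ part of nub and reaches into this gap, and no protein-coding gene lies wholly within it. The strongest conservative entry of nub, at 12597432 in an intron, had a signal of 40.7 and a −log10 IDR of 0.68, and of 1.31 in the pooled list. The signals there were 20.3 in replicate 1 and 15.3 in replicate 2. The nub entry with the highest conservative −log10 IDR, 0.90, was another one, at 12629114, 979 bp past the 3′ end of nub in an intron of Ref2, with a signal of 34.2.

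For pdm2 the strongest conservative entry, at 12684797 in a coding exon, had a signal of 34.9 and a −log10 IDR of only 0.09. Its signals in the replicates were 7.0 and 25.1, the widest gap between replicates among the 9 genes with an entry in both, at −1.84 as log2 of replicate 1 over replicate 2. The signals of separate lists are not scaled to each other, so this ratio is read only against those of the other genes. The pdm2 entry with the highest −log10 IDR, 0.41 in the conservative and 0.70 in the pooled list, lay in an intron at 12679578, had a signal of 30.2 and overlapped an entry of replicate 1 (17.4) and none of replicate 2.

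cas itself (FBgn0004878, 3R from 5712975 to 5716805, minus strand) carried the second most reproducible entry of the series by the pooled list. The entry, from 5716278 to 5716587 with its summit at 5716433, lay 372 bp downstream of the cas transcript start, in a coding exon of cas. Its signal was 50.8, and its −log10 IDR was 1.71 in the conservative and 2.04 in the pooled list, which put it just below the threshold of the former and just above that of the latter. The overlapping replicate entries had signals of 30.9 and 20.4 and −log10 IDR values of 1.54 and 0.39, so the entry ranked higher in replicate 1. The strain carries a cas-eGFP transgene, and reads at cas from a native and an inserted copy cannot be told apart. How this bears on the entries at cas and on their density was not tested, and no input library was analysed.

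A second cas entry reached a −log10 IDR of 1 in the pooled list, with 1.38 and a signal of 44.3 at 5709744, 3231 bp past the 3′ end of cas in a coding exon of the neighbouring gene plx. In replicate 2 the best-ranked entry of the cas window was a different one, at 5711791, also in a coding exon of plx, with a signal of 24.1 and a −log10 IDR of 1.44.

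grh (FBgn0259211, 2R from 17801132 to 17842820, plus strand) encodes Grainyhead, the transcription factor of the last window, which is also made in the epidermis. Its thresholded peak, from 17804794 to 17805103, had its summit at 17804949 in an intron, 2082 bp downstream of the nearest of the gene's own transcript starts. The signal was 76.3 in both combined lists, and the −log10 IDR was 3.03 in the conservative and 3.09 in the pooled list. In the replicates the peak had signals of 34.8 and 39.3 and −log10 IDR values of 1.78 and 2.37, so it passed the threshold in replicate 2 and was below it in replicate 1. It was close to the typical height of a thresholded peak, since the median signal of the conservative thresholded list was 77.3.

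In the combined lists the grh peak stood out from its own surroundings more than the strongest entry of any other gene in the series. Its conservative signal was 1.69 times that of the next strongest grh entry, while the same ratio ran from 1.03 for danr to 1.39 for hb in the other 9 genes. This order did not hold in the replicates. In replicate 1 the ratio was 1.38 at grh and 1.57 at cas, 1.41 at danr and 1.39 at hb, and in replicate 2 it was 1.61 at grh and 2.01 at dan. A further 2 conservative grh entries reached a −log10 IDR of 1. The first, at 17800942, lay 190 bp upstream of a grh transcript start, with a signal of 45.2 and a −log10 IDR of 1.54, and its nearest annotated start was that of the antisense RNA asRNA:CR45270. The second, at 17796423, lay in the upstream neighbour Dhit with a signal of 42.0 and a −log10 IDR of 1.13. In the pooled list 5 entries in the grh window reached this level, against at most 2 at any other gene of the series. This window of 61.7 kb was exceeded only by the 64.0 kb window of svp. Of these entries only the one at 17804949 lay in the body of grh. Those at 17793568 and 17796423 lay in Dhit, the one at 17800942 just upstream of grh, and the one at 17847410 in Orai and olf186-M.

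svp (FBgn0003651, 3R from 12258737 to 12302785, plus strand) encodes an orphan nuclear receptor known for ending the Hunchback window. Its strongest conservative entry, at 12279320, lay in an intron 1790 bp upstream of an svp transcript start, with a signal of 38.7. The −log10 IDR was 0.22 in the conservative but 1.39 in the pooled list. In replicate 1 the entry had a signal of 26.2 and a −log10 IDR of 1.12, in replicate 2 a signal of 12.2 and a −log10 IDR of 0.03, so it ranked far higher in replicate 1 than in replicate 2. The svp entry with the highest conservative −log10 IDR, 0.90, was at 12261096, 127 bp from the start of CG44038, with a signal of only 9.09; it was the weaker of a pair that shared its matched peaks with the entry at 12260897, which had a signal of 36.5.

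D (FBgn0000411, 3L from 14175610 to 14178620, minus strand) encodes Dichaete, a SOX-family protein. Its strongest conservative entry, at 14170824, was intergenic, 4786 bp past the 3′ end of the gene, with a signal of 36.2 and a −log10 IDR of 0.74. The replicate signals there, 16.4 and 17.5, had the log2 ratio nearest to 0 among the 9 genes with an entry in both, −0.10.

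dan and danr encode a pair of related nuclear proteins with a pipsqueak-type DNA-binding domain, known from antennal development and from the ageing of neuroblasts. danr (FBgn0039283, 3R from 25138072 to 25139903) and dan (FBgn0039286, 3R from 25184383 to 25192806) lie 44.5 kb apart on the plus strand. Their values were far apart within 10 kb, but not in the gene bodies. The body of the gene lobo spans dan and reaches into the gap, and no protein-coding gene lies wholly within it. The strongest conservative entry of dan had a signal of 53.4 and a −log10 IDR of 1.77, the second strongest signal of the series after grh. That of danr had a signal of 29.9, the weakest of the series, and a −log10 IDR of 0.24. With the gene body alone the order turned round, since the strongest signal in the body of dan was 26.3.

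The dan entry, with its summit at 25193971, lay 1165 bp past the 3′ end of dan and 195 bp upstream of a transcript start of the gene lobo, which makes it a promoter entry of lobo by position. Its replicate signals were 19.7 and 37.8, with −log10 IDR values of 0.39 and 1.83. In the pooled list its −log10 IDR was only 0.72, and the best dan entry there, at 25195247, was 280 bp upstream of the start of CG13653, with a signal of 39.4 and a −log10 IDR of 1.27. The danr entry, at 25139151, lay in a coding exon of danr, and its replicate signals were 11.6 and 23.3. The danr entry with the highest conservative −log10 IDR, 0.30, was at 25128405 in a coding exon of Clbn, 9667 bp upstream of danr, with a signal of 24.7.

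**Figure D2:**
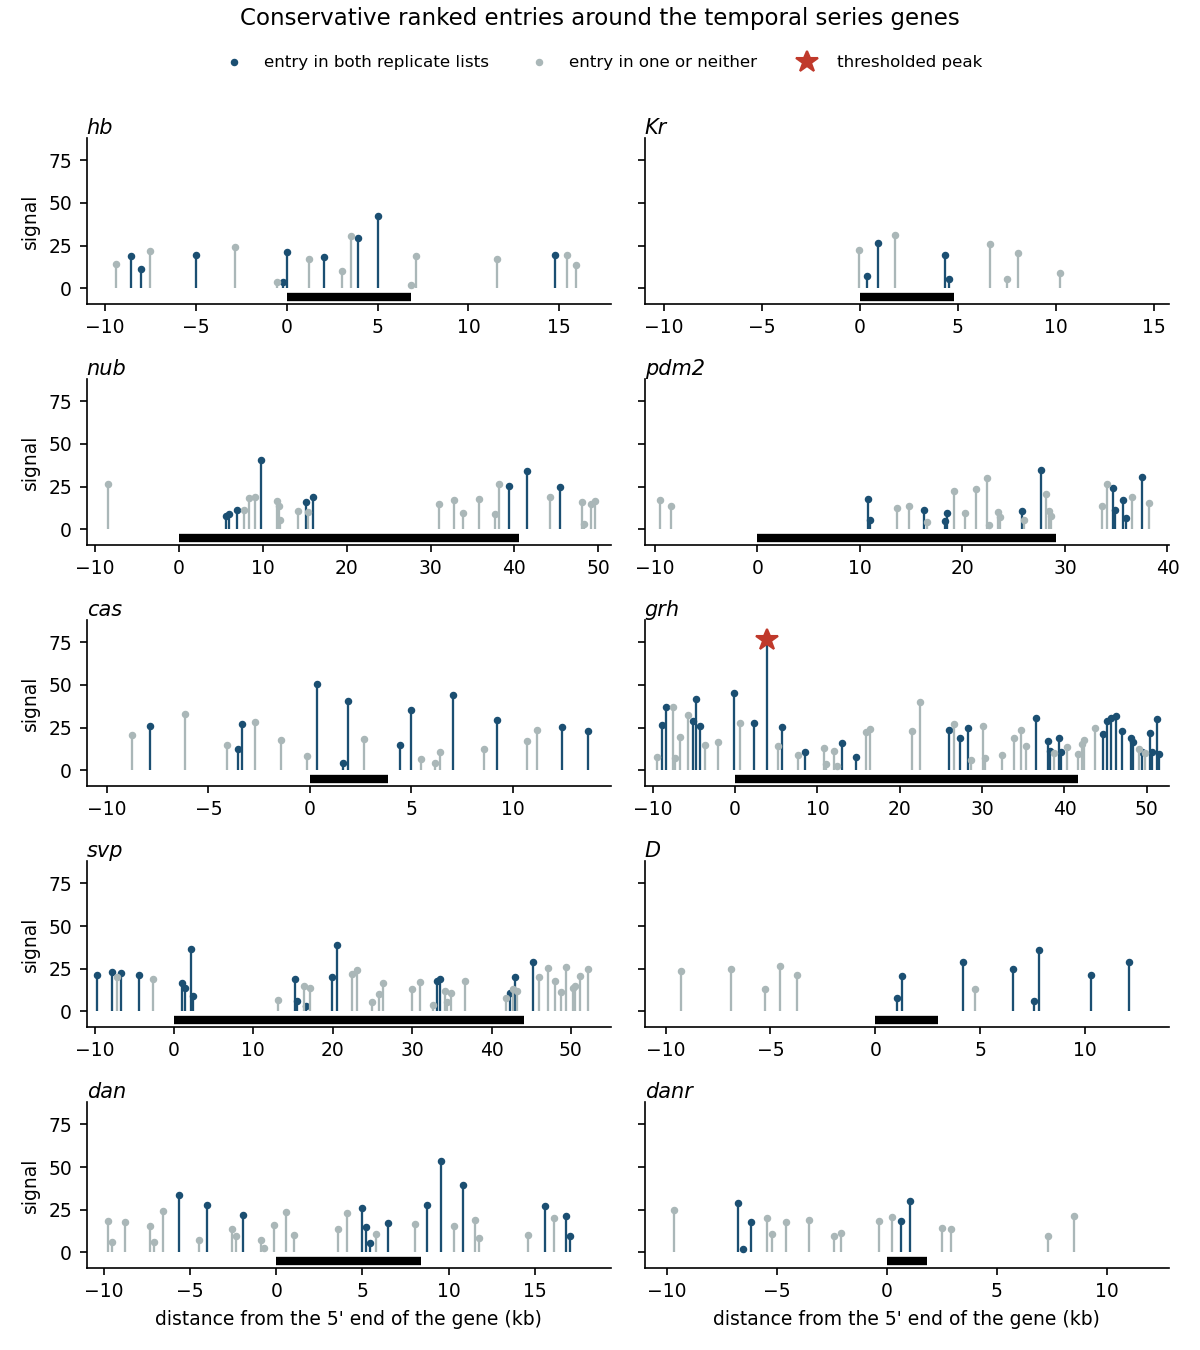
Signal of each conservative ranked entry (vertical axis, authors' units) against the distance of its summit from the 5′ end of the gene (horizontal axis, kb, in the direction of transcription), with the gene body as a black bar. Dark stems overlap entries of both replicates, pale stems do not, and the star at 76.3 in grh is the only thresholded peak.

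The sequences under 5 of these strongest entries are shown for what they share and how they differ. hb, svp and danr have the 3 entries richest in G and C, and cas and dan have the strongest ones outside grh; these 5 were picked after their values were seen. Each is the summit with 50 bp on either side, read from the plus strand of the RefSeq Release 6 genome, which is dm6, and runs of at least 4 G or C bases are in capitals. hb and cas are transcribed from the other strand. The hb window is chr3R:8692757-8692857 in a coding exon, the svp window is chr3R:12279270-12279370 in an intron, and the danr window is chr3R:25139101-25139201 in a coding exon. The cas window is chr3R:5716383-5716483 in a coding exon, and the dan window is chr3R:25193921-25194021, upstream of lobo.
hb: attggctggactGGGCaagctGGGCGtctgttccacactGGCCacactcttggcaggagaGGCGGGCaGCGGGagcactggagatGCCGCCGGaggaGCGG
svp: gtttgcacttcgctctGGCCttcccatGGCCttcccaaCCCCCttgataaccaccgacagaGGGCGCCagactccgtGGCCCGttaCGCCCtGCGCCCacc
danr: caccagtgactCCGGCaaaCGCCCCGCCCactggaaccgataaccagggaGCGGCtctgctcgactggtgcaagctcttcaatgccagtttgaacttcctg
cas: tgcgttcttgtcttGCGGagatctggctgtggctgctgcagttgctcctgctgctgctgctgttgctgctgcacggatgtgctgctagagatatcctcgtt
dan: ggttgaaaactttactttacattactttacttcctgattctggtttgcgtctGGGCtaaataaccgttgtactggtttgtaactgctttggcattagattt
The hb and svp windows have 37 bases each in such runs, danr has 20, and cas and dan have 4 each. The share of G and C was 67.3% at hb, 65.3% at svp, 59.4% at danr, 56.4% at cas and 36.6% at dan.

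In the conservative list base composition set the grh peak apart from the other strongest entries. In the summit with its 50 bp on either side, G and C made up 23.8% at grh, and 54.8% ± 9.95 (SD) on average at the other 9 genes, from 36.6% at dan to 67.3% at hb. Over the conservative thresholded peaks of the whole genome the mean was 35.3% ± 10.6 (SD, 1879 peaks on the arms). It was 48.6% ± 10.5 (SD) over the 9456 conservative entries with signals in the range of the other 9 genes. Taking all 298 conservative entries at the 10 genes, the mean was 47.5% ± 9.65 (SD), beside 47.0% ± 9.74 (SD) over all ranked entries. The value at grh depends on the summit. In replicate 1, whose summit of the grh peak lay 50 bp away, it was 34.7%, above the 28.7% at the strongest D entry and close to the 36.6% at that of hb. In replicate 2 it was 26.7%, the lowest of the series. By composition, then, the bulk of entries at the series resembled the bulk of the ranked list, and in the conservative list the grh peak had less G and C than the mean of the thresholded peaks. The SD is over entries, which are not replicates.

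**Figure D3:**
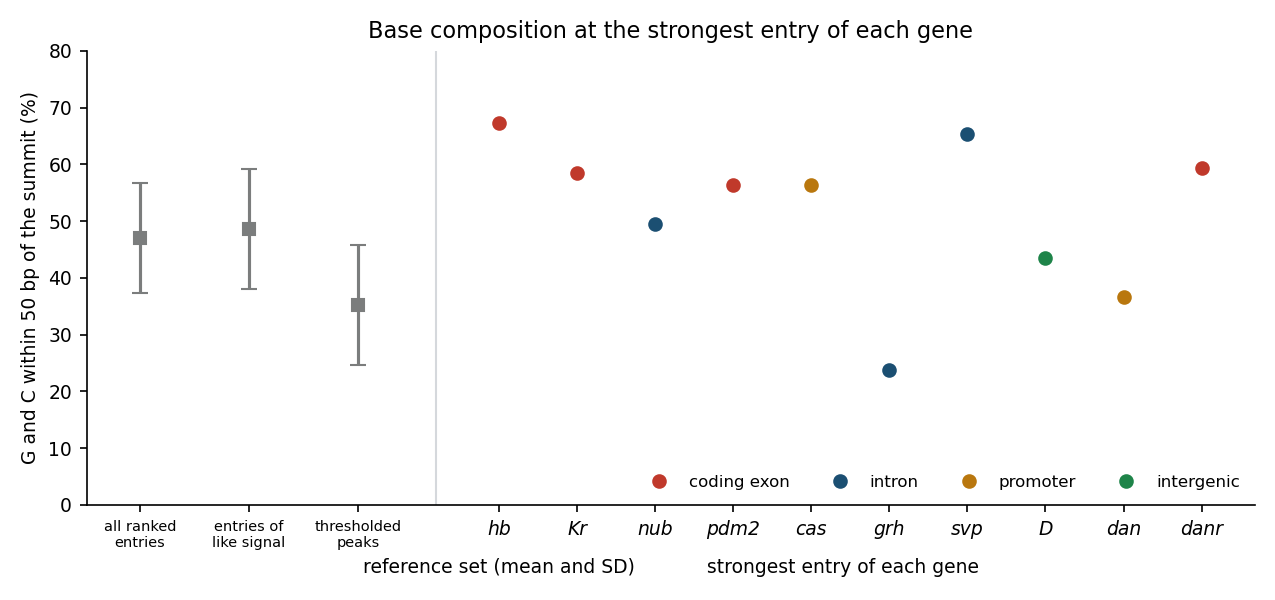
Share of G and C (vertical axis, %) within 50 bp of a summit, as the mean and SD of 3 reference sets (grey squares: all conservative ranked entries, entries of like signal, thresholded peaks) and at the strongest conservative entry of each gene, coloured by its position class. The grh entry is at 23.8%, and the other 9 run from 36.6% at dan to 67.3% at hb.

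Short DNA words were searched in the same windows. There were 5 words of 6 bases, each read on both strands, and the same A and T letters can count towards more than 1 of them. The words ATTTTA, then TTAAAA, and then TATCGA led the earlier account of these peaks, ATAAAA is the A-rich core of sites of the Hunchback type, and AAAAAA is a plain run of A. The grh peak held ATTTTA and ATAAAA within 50 bp of its summit, while the strongest conservative entries of the other 9 genes held none of the 5 words. In replicate 1 this turned round. The grh entry there is the same peak with its summit 50 bp away, and it held none of them. The strongest hb entry held ATTTTA, then ATAAAA and also AAAAAA, and the strongest D entry held ATTTTA, then TTAAAA and also AAAAAA. In replicate 2 the grh entry held ATTTTA and ATAAAA, and of the other strongest entries only that of cas held a word, ATAAAA. Over all 298 conservative entries of the series ATTTTA was present in 10.1%, TTAAAA in 8.39%, TATCGA in 2.68%, ATAAAA in 12.8% and AAAAAA in 14.1%. Over all conservative ranked entries the shares were 10.1%, 10.5%, 3.61%, 12.2% and 13.2% in the same order. Over the 9456 with signals in the range of the 9 genes other than grh they were 9.49%, 10.4%, 4.86%, 10.9% and 12.6%. With shares this low, the lack of words at 9 strongest entries is not read as a difference. The conservative thresholded peaks had 31.5%, 33.3%, 9.53%, 28.4% and 26.1%. Since these words were picked with earlier results known, their higher shares in thresholded peaks are no separate evidence.

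By position the entries of the series lay mostly inside genes. Of the 298 conservative entries, 41.6% were intronic, 18.5% in coding exons, 15.4% at a promoter (within 500 bp of any transcript start) and 15.4% intergenic. All ranked entries had 34.9%, 21.3%, 18.1% and 19.9% in the same classes. The thresholded peaks of the genome were placed differently, with 62.1% at promoters and 0.905% in coding exons. The strongest entries of hb, Kr, pdm2 and danr lay in coding exons and so did that of cas, although its distance of 372 bp from the start made it a promoter entry by the rule. The strongest entries of nub, grh and svp were intronic, and that of dan was at the promoter of lobo. Of the 9456 conservative entries with signals in the range of the 9 genes other than grh, 21.8% were in coding exons. Another 29.2% were at promoters, the class that cas has by the rule.

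Entries at the genes' own transcript starts were also read, with no value for all genes beside them. Within 500 bp of a start of the gene itself, the strongest conservative signal was 50.8 at cas and 45.2 at grh, and it lay between 14.7 at nub and 30.5 at hb for the other 8 genes. In the pooled list nub had a stronger one, 34.0 with a −log10 IDR of 0.96, at 12618179, so its place as the lowest of the 8 rests on the conservative list. Kr, for example, had 22.5 at a summit 47 bp upstream of its start. In replicate 1 no entry lay within 500 bp of a start of pdm2 or of dan. In replicate 2 both had one. The strongest at dan, at 25184013, had a signal of 13.4 and a −log10 IDR of 1.21, and that at pdm2 had 12.8 and 0.03. For danr, 3 of the 18 conservative entries in its window had a danr start as their nearest, compared with 9 of 10 at Kr, so most danr entries were nearer to other genes.

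The replicates placed their strongest entries at different spots for most of the genes. For 9 of the 10 genes (all but Kr) the strongest conservative entry overlapped a ranked entry of each replicate by at least 1 bp, beside 87.4% of the 13732 genes that could be assessed. The strongest entries of replicate 1 and of replicate 2 overlapped each other at only 2 of the 10, Kr and grh, beside 38.3% of 13700 genes; this second measure was added after the values had been seen. The summits of the replicates' strongest entries were 36 bp apart at grh and 189 bp apart at Kr. They were 1.26 kb apart at dan, 1.55 kb at hb and between 6.24 kb (D) and 31.6 kb (nub) at the remaining 6 genes. At grh alone were the strongest entries of both replicates also at the strongest conservative entry.

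Over all 298 conservative entries of the series, 122 (40.9%) overlapped entries of both replicates, beside 36.8% of all conservative entries. A further 50 overlapped an entry of replicate 1 only, 80 of replicate 2 only and 46 of neither. By gene the share in both replicates ran from 27.8% at danr to 57.1% at D, with 48.5% at grh and 48.0% at cas. The replicate 2 ranked list was the longer of the replicate lists, and how its length bears on these shares was not tested.

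**Figure D4:**
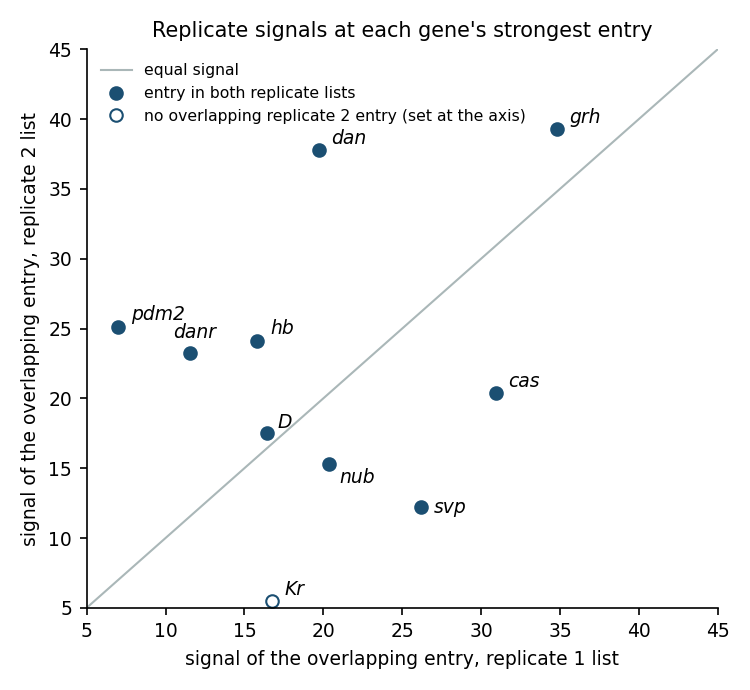
Signal of the overlapping entry in the replicate 2 list (vertical axis, authors' units) against that in the replicate 1 list (horizontal axis) at the strongest conservative entry of each gene; the line marks equal signals, and the open circle is Kr, which had no replicate 2 entry. grh has 34.8 and 39.3, dan, pdm2, danr and hb lie above the line, and cas, svp and nub lie below it. Signals are not scaled between the lists, so the line is only a guide to the eye.

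Ranked entries were sparser around the series than around most genes. The median over the 10 genes was 0.758 conservative entries per kb of window, beside 1.02 over all protein-coding genes, and 7 of the 10 were below the latter. Kr had the lowest density, 0.403 per kb with 10 entries, followed by nub with 0.479. dan had the highest, 1.27 per kb with 36 entries, and 82.9% of all genes had a lower density than dan.

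The same held in the pooled list, with a median of 0.968 per kb beside 1.17, and in replicate 1, with 0.369 beside 0.611. In replicate 2 the median of the series was 0.824 per kb beside 0.781, so the series was not below all genes there. The cas window was the densest of the series in replicate 2. It held 31 entries in replicate 2, 1.3 per kb, a density that 99.6% of all genes fell short of, and 16 entries in replicate 1, 0.671 per kb, where 59.8% fell short. In svp the densities were 0.827 per kb in replicate 2 and 0.297 in replicate 1, and in danr 0.962 and 0.366, which as ratios are further apart than those of cas.

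**Figure D5:**
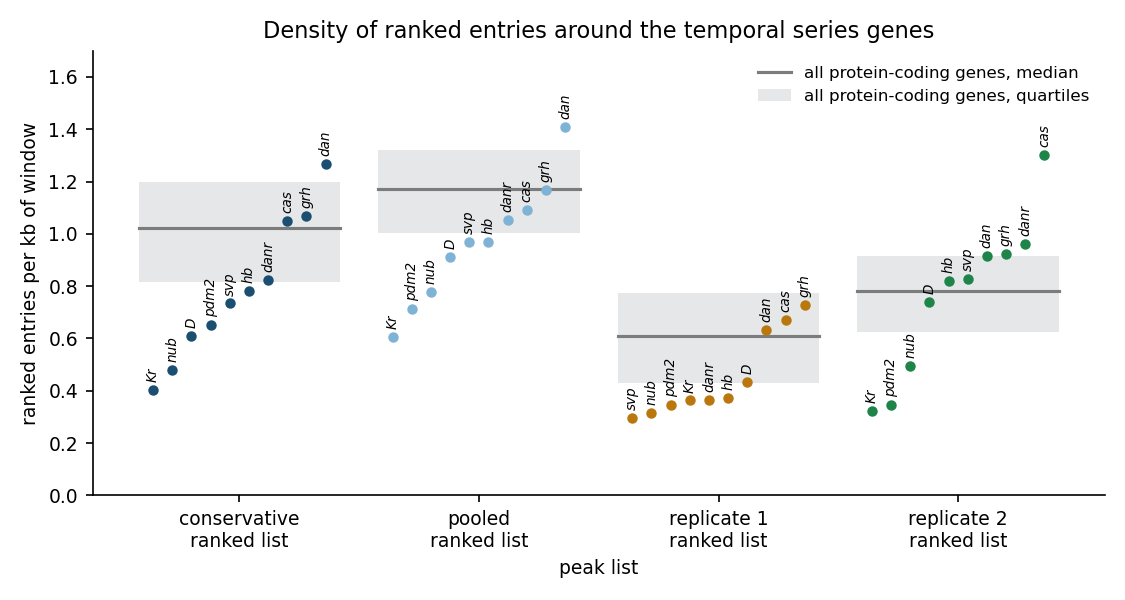
Ranked entries per kb of window (vertical axis) for each gene in the 4 ranked lists (horizontal axis), with the median (line) and quartiles (band) of all protein-coding genes. Kr, nub and pdm2 lie below the band in every list, and cas in replicate 2 is at 1.3.

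Some of the low densities came from long stretches without any conservative summit; this measure too was added after the values had been seen. The longest stretch in the window of Kr was 9.95 kb, from the lower edge of the window to 48 bp upstream of the gene, so that all but the last bases of the 10 kb upstream of Kr were empty. No entry of the pooled list or of either replicate had its summit in this stretch. At pdm2 the stretch was 19.3 kb and ran from 8.45 kb upstream of the 5′ end of the gene to 10.8 kb into it, with no pooled, 2 replicate 1 and 0 replicate 2 summits.

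At nub it was 15 kb within the gene body, from 16 to 31.0 kb past the 5′ end, but it held 11 pooled and 9 replicate 2 summits. At svp it was 10.7 kb, with 6 pooled and 7 replicate 2 summits and 0 of replicate 1. The empty stretches of Kr and pdm2 were therefore nearly shared by all lists, and those of nub and svp were not. Over the 10 genes the median of the longest stretch was 4.94 kb, beside 3.18 kb over all protein-coding genes, whose windows were shorter, with a median of 22.2 kb beside 27.6 kb. The stretch of Kr had 36.2% G and C, like its whole window at 36.3%, and the whole arms had 42.1%; the part of base composition in these gaps was not tested.

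By signal and by best −log10 IDR the same 3 genes led the conservative list, grh, dan and cas, and the same 3 came last, pdm2, Kr and danr. The place of dan rests on the entry at the lobo promoter, outside dan. With the gene body alone the strongest signal was 26.3 at dan, below the 29.9 at danr. The median of the best −log10 IDR over the series was 0.897 in the conservative list, beside 1.51 over all genes, and the median of the strongest signal was 39.7, beside 47.4, with 7 of 10 genes below the latter in each case. By conservative signal the order was grh (76.3), dan (53.4), cas (50.8), hb (42.4), nub (40.7), svp (38.7), D (36.2), pdm2 (34.9), Kr (31.25) and danr (29.9). The neighbours dan and cas in this order changed places in replicate 1, at 24.7 and 30.9, and not in replicate 2, at 37.8 and 25.3. grh led in each replicate, with 34.8 against 30.9 at cas in replicate 1 and 39.3 against 37.8 at dan in replicate 2. Even grh was not at the top of the genome, since 72.7% of all genes had a lower best conservative −log10 IDR.

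Thresholded peaks were found a little farther from some genes of the series. Within 20 kb, 4 of the 10 genes had a conservative thresholded peak, beside 55.9% of all genes. The peak near hb had a signal of 104 and lay 14.2 kb from the gene at the promoter of Unc50. The peak near cas had 60.0 and lay 11.7 kb away in an intron of plx, and that near dan had 54.4 and lay 14.8 kb away in an intron of Cad96Ca. With the gene body alone the count was 1, grh, beside 6.13% of all genes.

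Other genes of temporal patterning and of neuroblast identity were counted by the same rule. Of 17 other temporal genes, 6 had a conservative thresholded peak within 10 kb, and of 8 neuroblast identity genes 2 had one. The share among all protein-coding genes was 40.8%. With lists this short, neither count is read as a shortfall. The temporal genes had theirs in windows that were longer (median 50.03 kb) than those of the series. chinmo, which marks the young state of ageing neuroblasts and neurons, had peaks with signals of 216 and 113, and slp1 and slp2, temporal factors of the optic lobe, shared an intergenic peak of 107. The others were mamo (74.0), br (50.5) and Eip93F (48.5), the last at the promoter of its neighbour Idh3b. The br peak was in neither replicate's thresholded list, and that of Eip93F was in the conservative list alone. The peak shared by slp1 and slp2 was counted for both genes. Of the identity genes, brat, a growth regulator of neuroblast daughters, had an intronic peak of 206, and pros, a differentiation factor, had a peak of 152 at the promoter of Irbp. The lists differ in size and window length, and the difference between them was not tested.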

How the data were processed

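The authors deposited, for 2 biological replicates of 1 group, peak lists on dm6 with a signal value per peak, in the authors' own units. Per the deposited README texts and the files, the lists also hold the global IDR as −log10 values, which end at 5. Which aligner or caller made them, and how it was set, is not given in the sources used here. Replicate numbers come from the labels. Summits were assigned to genes of Ensembl release 115 (BDGP6.54) by body plus 10 kb, and sequence came from the RefSeq Release 6 genome, whose arm ends no entry exceeded. Each summit got 1 class, promoter (within 500 bp of a transcript start) first. The members and lists were chosen with earlier results of these data known. All 10 members were named, with every thresholded peak, the strongest conservative entry and the one with the highest −log10 IDR. Of the conservative entries at the members, 28 are the weaker of 2 that share a pair of peaks in the ranked list. Only counts, medians and shares were computed, beside those over all genes, with no test. Assignment was tested on simulated peaks with known places. The alternatives were other windows, lists, IDR levels, a signal minimum of 10, peaks joined within 200 bp, other overlap rules and other promoter and word windows. Of the symbols in the 2 further gene lists, 1 was matched through an older name. Python 3.11.15 with numpy 2.4.6, pandas 2.3.3 and matplotlib 3.10.9 was used.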

Additional observations from a re-analysis of the deposited data

How the results depend on the processing

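Of the summary values recomputed under the alternatives, 42 stayed within the spread between replicates, or within the tolerance for counts, and 36 did not. The number of genes with a thresholded peak was 4 with a 20 kb window (55.9% of all genes), 2 in the pooled list, and 0 to 1 in the lists of the single replicates, where leaving out replicate 2 removed the grh peak. The number with a −log10 IDR of at least 1 was 7 with a 20 kb window (74.1% of all genes), 6 in the pooled list (68.5%) and 7 at a level of 0.6 (73.5%). It was 2 in the gene body alone (12.7%) and 3 with a 2 kb window (32.8%), where the series was not clearly short of all genes. The median density in the single replicates was 0.369 to 0.824 per kb. The median best −log10 IDR was 0.558 for the gene body, 1.59 for 20 kb, 1.29 in the pooled list and 0.398 to 0.588 in the replicates. The median strongest signal was 36.8 for the body, 45.6 for 20 kb and 22.1 to 24.6 in the replicates, whose lists have their own scale. The promoter share of entries was 12.8% for the body, 16.6% for 2 kb, 18.4% for 20 kb, 16.1% at a signal of at least 10, 10.1% and 28.9% with promoters of 200 and 1000 bp, and 16.7% to 17.5% in the replicates. In 51 bp, which hold fewer words by construction, ATTTTA was in 6.04%, TTAAAA in 5.03%, TATCGA in 1.01%, ATAAAA in 7.38% and AAAAAA in 8.05% of entries. At a signal of at least 10, TTAAAA was in 7.63%, ATAAAA in 10.6% and AAAAAA in 11.02%. In the replicates, TTAAAA was in 9.36% to 9.93%, TATCGA in 2.34% to 4.61% and AAAAAA in 14.2% to 15.8%. Apart from the shorter word window, the cause of these shifts was not tested. Among single genes, the strongest signal of hb was 104 with 20 kb, that of dan 26.3 in the gene body alone and that of D 20.8 there. No paired analysis was possible because there is 1 group. The depth is unknown and there are 2 replicates, so weak entries near the middle of the ranked lists carry little weight on their own.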
